A study of Homo sapiens with 10 samples.

Results

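The 9 transcription factors TP63, SOX2, KLF4, KLF5, GRHL1, GRHL2, GRHL3, ZNF750 and TFAP2A were examined as a group. Each is known as a regulator of squamous (stratified) epithelium, and they were chosen with earlier results of these data known. They were taken by gene name from a table of 58302 genes, and all 9 passed the filter on low values that kept 17664 genes for testing. The cells were KYSE-410, an established line of human oesophageal squamous cell carcinoma. The control was 1 colony that had received the vector without a guide RNA (labelled WT). Each of the other 4 groups, named D4, G4, G10 and H3, was a clone in which a Cas9 nickase was used to knock out SHIP2, a phosphoinositide phosphatase encoded by INPPL1. These clones were grown from GFP-positive cells sorted into a plate and picked by Western blot for SHIP2. Each group had 2 libraries of total RNA, 10 in all, and the question was which transcripts differ when SHIP2 is ablated. Each edited line is 1 clone and the control is 1 colony, so a difference that comes with SHIP2 and one that comes with the choice of a clone cannot be told apart. Nothing in the labels says that the 2 libraries of a group came from separate cultures, so p-values measure only the spread between those libraries.

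Squamous epithelium renews from a basal layer whose identity depends on p63, the protein of TP63, which works with SOX2 and AP-2 factors on the enhancers of keratin and adhesion genes. As cells leave that layer, KLF4, ZNF750 and GRHL3 switch on genes of the barrier, while KLF5 is best known from proliferating basal cells of the oesophagus. GRHL1 and GRHL2 hold genes of desmosomes and tight junctions active. In squamous carcinomas of the oesophagus TP63 and SOX2 lie in a region of chromosome 3 that is often gained.

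Levels are given in CPM, gene-assigned reads of a library scaled to a common total, and levels of different genes are compared only per kilobase of annotated exon. By that measure the control colony held most KLF5 (46.2 CPM per kb), then TP63 (27.4) and GRHL2 (24.7). GRHL3 (8.5 CPM per kb) and KLF4 (6.58) came next. SOX2 (2.94 CPM per kb), TFAP2A (2.22), GRHL1 (0.961) and ZNF750 (0.868) were the least abundant. The plot of CPM in each library shows that the spread within a group was small beside most differences between groups.

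**Figure D1:**
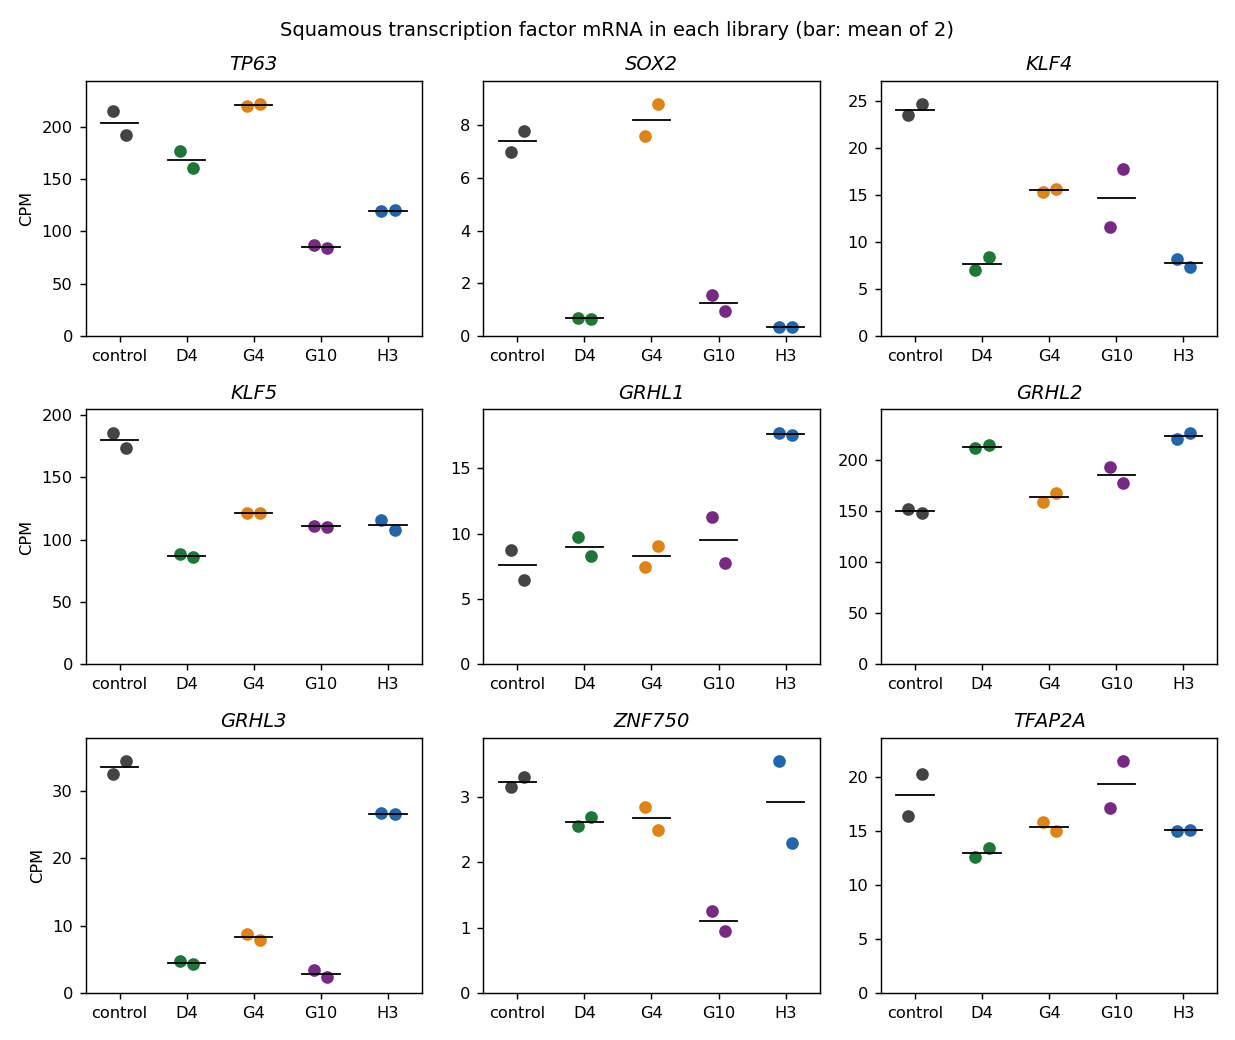
Level of each squamous transcription factor in CPM (vertical axis, linear, from 0) in the control colony and the clones D4, G4, G10 and H3. Points are single libraries and bars are the means of 2 libraries. KLF4 and KLF5 lie below both control libraries in every clone, while SOX2 stays near the control in G4 and below 2 CPM in D4, G10 and H3.

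Depth was estimated at 9653837 to 14253437 gene-assigned reads a library, so that 3 reads, the number a count of 0 allows, correspond to 0.21 to 0.311 CPM; this covers counting error only. INPPL1, the targeted gene, was lower in all 4 clones: 145 ± 6.95 CPM (mean ± SD, n = 2) in the control, 88.4 ± 6.84 in D4, 64.9 ± 0.705 in G4, 9.49 ± 0 in G10 and 86.7 ± 1.95 in H3. Of the 10 defining markers of squamous carcinoma cells, most of which are also on the list of TP63 targets used further on, 9 were at 1 CPM or more in the control and PKP1 was below it. Their summed level was 3020 to 3100 CPM in the control, 1460 to 1560 in D4, 2020 to 2040 in G4, 978 to 1030 in G10 and 1270 to 1340 in H3. KRT6A was the highest of them in the control, at 909 ± 14 CPM. It was at 11.3 ± 1.45 CPM in D4, 232 ± 7.41 in G4, 6.97 ± 1.45 in G10 and 5.4 ± 0.919 in H3, so the sum leans on this gene. For the mean of the 4 clones 7 of the 10 were lower and 2 higher, beside 22% and 18.2% of all tested genes. Of 8 fibroblast markers 2, LUM and COL1A1, passed the filter on low values, and for the mean of the 4 clones only LUM rose. LUM went from 4.52 ± 0.0354 CPM in the control to 53.4 ± 4.71 in D4, 28.2 ± 2.44 in G10 and 118 ± 2.17 in H3, with 4.82 ± 0.0354 in G4. COL1A1 was not called for that mean or in D4, G10 and H3. In G4 it was called lower, at 7.37 CPM against 13.0 in the control. Of the 8 fibroblast markers 3 reached a mean of 1 CPM in D4, against 2 in every other group. The summed level of those 8 was 16.3 to 20.4 CPM in the control, 62.4 to 68.9 in D4, 12.1 to 13.9 in G4, 41.9 to 42.0 in G10 and 132 to 137 in H3, with COL1A2, DCN and THY1 at or near 0. Of 8 blood and immune markers only CD68 passed the filter, and it followed the same division of the clones (38.1 CPM in the control, 37.9 in G4 and 6.97 to 13.4 in D4, G10 and H3), with PTPRC and HBB at or near 0 throughout. Of 12 columnar, 8 neural and 6 endothelial markers 6, 3 and 1 passed the filter, and for the mean of the clones GATA6 and TUBB3 were lower and the columnar marker TFF2, named after its values were seen, was higher. The part of these shifts in the results that follow was not tested.

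The 5 start regions of KLF4, KLF5 and GRHL3 are shown because these are the 3 factors called lower in G4, the clone with the fewest calls, and KLF4 and KLF5 were lower in every clone. Each is the 250 bases upstream of a RefSeq start on GRCh38.p14, read 5′ to 3′ on the strand of the gene, with motif matches in capitals. The KLF4 region lies at chr9:107489770-107490019 on the minus strand. The starts of KLF5 lie at chr13:73054726-73054975 and chr13:73058755-73059004, and those of GRHL3 at chr1:24319107-24319356 and chr1:24322790-24323039, all on the plus strand.
KLF4: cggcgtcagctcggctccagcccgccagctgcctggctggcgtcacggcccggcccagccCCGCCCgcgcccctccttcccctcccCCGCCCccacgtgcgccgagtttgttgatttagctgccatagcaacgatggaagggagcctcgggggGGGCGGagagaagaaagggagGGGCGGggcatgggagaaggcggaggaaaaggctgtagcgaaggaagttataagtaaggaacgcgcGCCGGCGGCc
KLF5 start 1: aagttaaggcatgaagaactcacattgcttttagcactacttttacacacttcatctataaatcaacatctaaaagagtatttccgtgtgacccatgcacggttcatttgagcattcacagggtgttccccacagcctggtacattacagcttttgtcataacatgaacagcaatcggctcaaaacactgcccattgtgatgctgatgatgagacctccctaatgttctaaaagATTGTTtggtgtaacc
KLF5 start 2: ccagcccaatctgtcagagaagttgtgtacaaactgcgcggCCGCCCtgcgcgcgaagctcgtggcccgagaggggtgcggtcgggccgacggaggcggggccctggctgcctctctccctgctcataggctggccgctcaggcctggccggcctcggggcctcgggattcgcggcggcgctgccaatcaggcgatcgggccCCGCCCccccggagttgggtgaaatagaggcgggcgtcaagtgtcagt
GRHL3 start 1: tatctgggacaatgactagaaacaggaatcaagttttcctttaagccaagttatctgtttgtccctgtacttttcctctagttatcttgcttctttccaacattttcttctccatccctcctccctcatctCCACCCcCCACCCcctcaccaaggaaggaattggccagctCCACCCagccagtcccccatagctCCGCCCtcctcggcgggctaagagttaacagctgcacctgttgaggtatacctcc
GRHL3 start 2: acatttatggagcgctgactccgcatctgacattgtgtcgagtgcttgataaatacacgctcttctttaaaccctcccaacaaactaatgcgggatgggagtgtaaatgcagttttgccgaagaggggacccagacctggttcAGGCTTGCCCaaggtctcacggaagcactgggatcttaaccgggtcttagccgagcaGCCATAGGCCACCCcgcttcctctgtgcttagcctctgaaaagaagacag

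Of the 9 factors 7 had a RefSeq entry, with 10 starts in all; GRHL2 and ZNF750 are named only. The motifs searched on both strands were the GC box GGGCGG and the CACCC box CCACCC, the kinds of site that KLF factors read, the AP-2 site GCCNNNGGC, the grainyhead site AACNNGTT, the SOX site ATTGTT and the p53-family decamer, a single unit of the paired response element. The KLF4 region held 4 GC boxes and 1 AP-2 site. KLF5 had 1 SOX site at its first start and 2 GC boxes at its second. GRHL3 had 3 CACCC boxes and 1 GC box at its first start, and 1 CACCC box, 1 AP-2 site and 1 p53-family decamer at its second, where the AP-2 and CACCC matches overlap. Among 35116 RefSeq promoter windows of the same length a GC box was present in 42.6%, a CACCC box in 31.3%, an AP-2 site in 19.8%, a SOX site in 8.98%, a p53-family decamer in 5.57% and a grainyhead site in 3%. A match describes the letters and is neither a site nor a cause.

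TP63 and SOX2, the paired lineage factors, were lower in D4, G10 and H3 and stayed at the level of the control in G4. SOX2 changed far more than TP63: it stood at 4.73% to 16.9% of the control mean in those 3 clones, against 41.8% to 82.6% for TP63. In bulk RNA, fewer cells that express a gene and less of its RNA in each cell cannot be told apart.

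TP63 (ENSG00000073282, chromosome 3, 189631416 to 189897279, plus strand, hg38 positions of GENCODE 29) was at 216 and 193 CPM in the control libraries. It was at 177 and 160.3 CPM in D4, 220.3 and 222 in G4, 86.9 and 83.7 in G10, with 119 and 120.5 in H3. Both libraries of D4, G10 and H3 lay below both control libraries, and both of G4 lay above them. On the log2(CPM + 1) scale, used for every fold change here and understating those of low genes, TP63 fell by 1.25 ± 0.07 (SE) in G10 (limma adjusted p = 2.51e-09). It fell by 0.76 ± 0.07 in H3 (adjusted p = 4.46e-07). Here and below a value in parentheses after a fold change is its limma adjusted p. The fall of 0.27 ± 0.07 in D4 passed too (adjusted p = 0.00613), but not without control replicate 1 (adjusted p = 0.105) or without D4 replicate 2 (adjusted p = 0.0812). The G4 value of 0.12 ± 0.07 did not pass (adjusted p = 0.247). From the highest level to the lowest the order was G4, control, D4, H3 and G10, and only the neighbours G4 and control did not differ beyond their spread. TP63 has isoforms with opposite roles, and a value per gene does not separate them.

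SOX2 (ENSG00000181449, chromosome 3, 181711924 to 181714436, plus strand) is a single-exon gene for an HMG-box factor of the foregut. The control libraries held 7 and 7.79 CPM, estimated at 78 and 102 reads. G4 held 7.6 and 8.8 CPM, D4 0.7 and 0.65, G10 1.55 and 0.949, and H3 0.35 in each library. The H3 values came from an estimated 4 reads in each library, and the D4 values from 7 and 6. Every library of D4, G10 and H3 lay below both control libraries and below both of G4, while G4 overlapped the control. SOX2 fell in all 3, with log2 fold changes of −2.64 ± 0.18 in H3 (limma adjusted p = 1.3e-08), −2.32 ± 0.18 in D4 (6.24e-08) and −1.91 ± 0.18 in G10 (7.9e-07). With a pseudocount of 0.1 CPM the H3 value was −4.06 (3.12e-08). As ratios of mean CPM the levels were 21.1-fold, 11-fold and 5.92-fold lower than in the control. The G4 value was 0.13 ± 0.18 (adjusted p = 0.645). G10 and D4 did not differ beyond their spread (adjusted p = 0.101), nor did D4 and H3 (0.192). H3 did differ from G10, by −0.72 ± 0.18 (adjusted p = 0.00492). The long RNA gene SOX2-OT spans SOX2, shares no exonic base with it and averaged 0.145 CPM.

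Both genes lie on the long arm of chromosome 3, so their change was set beside that of 50 tested genes around each whose mean reached 5 CPM. Around TP63 (184561784 to 196243178) the median log2 fold change of neighbours was −0.38 in D4, −0.41 in G10 and −0.45 in H3, and −0.05 in G4. Around SOX2 (171061339 to 184361651) it was −0.54, −0.52 and −0.53 in the same order, and −0.1 in G4. The neighbours of both genes were thus lower in D4, G10 and H3 than in G4, where their median was near 0. Less its neighbours, TP63 stood at 0.11 ± 0.06 in D4 (limma adjusted p = 0.167), a change of direction, at −0.83 ± 0.06 in G10 (3.39e-08) and at −0.31 ± 0.06 in H3 (0.000583). SOX2 kept its calls on that scale, with −1.78 ± 0.18 in D4, −1.4 ± 0.18 in G10 and −2.11 ± 0.18 in H3. Whether the copy number of chromosome 3 differs between the clones was not tested.

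**Figure D2:**
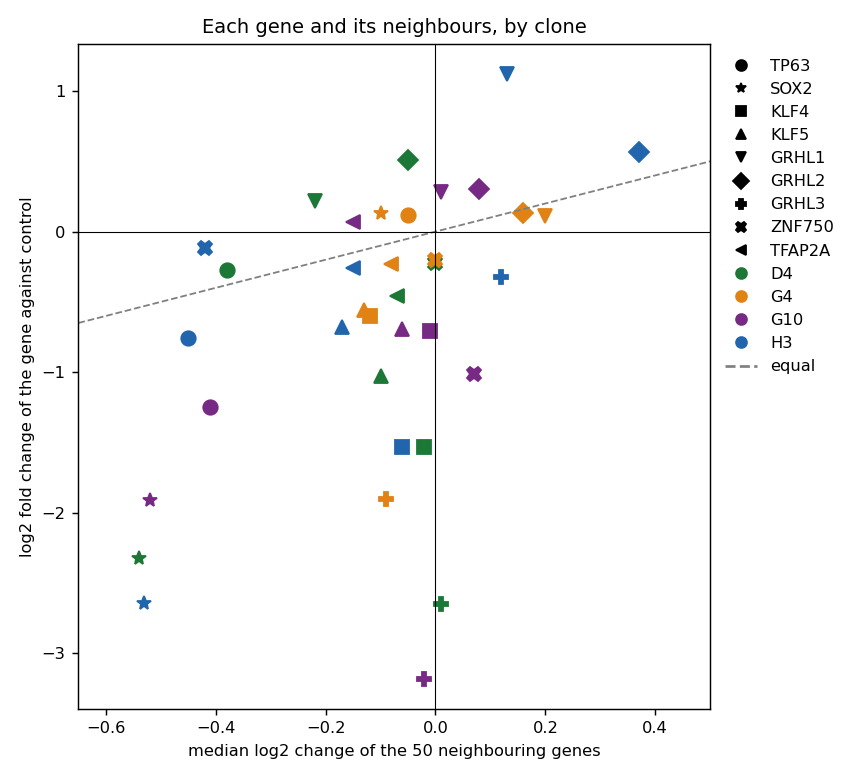
Log2 fold change of each factor against control (vertical axis) over the median log2 change of its 50 neighbouring genes (horizontal axis), 1 point for each factor and clone; shapes are genes, colours are clones and the dashed line marks equal values. TP63 and SOX2 have neighbours at −0.38 to −0.54 in D4, G10 and H3, and the SOX2 points lie far below the line.

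KLF4 and KLF5, zinc-finger factors that read related GC-rich and CACCC sites, were lower in all 4 clones. They were the only factors of the 9 called lower in each clone, which 3.9% of all tested genes were. KLF4 stood at 32.0% of the control mean in D4 and 32.1% in H3, and KLF5 was lowest in D4, at 48.6%.

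KLF4 (ENSG00000136826, chromosome 9, 107484852 to 107490482, minus strand), which drives late differentiation, was at 23.5 and 24.7 CPM in the control. It was at 7 and 8.39 CPM in D4, 15.3 and 15.7 in G4, 11.6 and 17.8 in G10, with 8.14 and 7.29 in H3. All 8 knock-out libraries lay below both control libraries, and the G10 libraries stood furthest apart. KLF4 fell by 1.53 ± 0.16 in D4 (limma adjusted p = 1.66e-06) and by 1.53 ± 0.16 in H3 (1.41e-06). It fell by 0.71 ± 0.16 in G10 (0.00263) and by 0.6 ± 0.16 in G4 (0.0109). The G10 value was −0.42 (0.0407) without G10 replicate 1 and −0.99 without G10 replicate 2. The G4 call was lost without control replicate 2 (0.0695), without G4 replicate 1 (0.0728), without G4 replicate 2 (0.0577) and with neighbours subtracted (0.0705). In order of level the control came first, then G4 and G10, which did not differ (0.65), then H3 and D4, which did not differ either (0.979).

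KLF5 (ENSG00000102554, chromosome 13, 73054976 to 73077542, plus strand), the basal-layer member of the family, was at 186 and 174 CPM in the control. It was at 88.6 and 86.0 CPM in D4, 122 and 121 in G4, 111 and 110.4 in G10, with 116 and 108 in H3. No knock-out library reached the lower control library, and D4 was the lowest clone. KLF5 fell in each clone, with log2 fold changes of −1.03 ± 0.07 in D4 (limma adjusted p = 8.38e-09), −0.69 ± 0.07 in G10 (1.08e-06), −0.68 ± 0.07 in H3 (8.29e-07) and −0.56 ± 0.07 in G4 (2.24e-05). G4, H3 and G10 did not differ from their neighbours in the order of levels (0.175 and 0.864), and D4 lay below G10 (0.00135). Its neighbouring genes had medians of −0.06 to −0.17, and with these subtracted all 4 calls stood (−0.43 to −0.93). Per kilobase, KLF4 made up 12.5% ± 0.913 (SD, n = 2) of the summed KLF4 and KLF5 level in the control, 12% ± 0.189 in G4 and 12.3% ± 3.29 in G10. That share was 8.58% ± 1.17 in D4 and 6.82% ± 0.171 in H3. The sum itself was 52.8 CPM per kb in the control and 24.5, 35.5, 32.5 and 30.9 in D4, G4, G10 and H3.

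The 3 grainyhead-like factors moved in different directions. GRHL3, the family member of the barrier layers, fell in D4, G4 and G10; GRHL2, the most abundant member, rose in 3 clones; and GRHL1 rose in H3. For GRHL3 the clone closest to the control was H3, not G4, and its lower level in H3 did not pass in the main fit.

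GRHL3 (ENSG00000158055, chromosome 1, 24319322 to 24364482, plus strand) was at 32.6 and 34.4 CPM in the control. It was at 4.75 and 4.25 CPM in D4, 8.75 and 7.8 in G4, 3.35 and 2.35 in G10, with 26.7 and 26.5 in H3. Both H3 libraries lay just below the control, and the libraries of the other 3 clones lay far below both groups. GRHL3 fell in these 3, with log2 fold changes of −3.18 ± 0.14 in G10 (limma adjusted p = 1.18e-10), −2.65 ± 0.14 in D4 (7.43e-10) and −1.9 ± 0.14 in G4 (1.97e-07). In mean CPM these levels were 11.8-fold, 7.45-fold and 4.05-fold lower. Ranked from the lowest log2 fold change of the 17664 tested genes, GRHL3 stood at place 15 in G4, 28 in G10 and 49 in D4. The H3 value of −0.32 ± 0.14 did not pass (0.0739), but it did with limma-voom on estimated reads (0.00925), with neighbours subtracted (0.0159) and without either G10 library (0.0375 and 0.0361). H3 differed from G4 by 1.58 ± 0.14 (2.39e-07), G4 from D4 (0.000503) and D4 from G10 (0.0104), so each step of the order below H3 exceeded its spread. Neighbouring genes on chromosome 1 had medians of −0.09 to 0.12.

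GRHL2 (ENSG00000083307, chromosome 8, 101492432 to 101669726, plus strand), a keeper of epithelial identity, was at 152 and 148 CPM in the control. It was at 212 and 214 CPM in D4, 159 and 168 in G4, 193 and 178 in G10, with 220.4 and 227 in H3. All 8 knock-out libraries lay above both control libraries. GRHL2 rose by 0.57 ± 0.06 in H3 (limma adjusted p = 2.44e-06), 0.51 ± 0.06 in D4 (1.14e-05) and 0.3 ± 0.06 in G10 (0.00143). The G4 value was 0.13 ± 0.06 (0.157), and it passed with median-of-ratios size factors (0.18, 0.0424). H3 and D4 did not differ (0.424), nor did G4 and control (0.157). In H3 the neighbours of GRHL2 on chromosome 8 had a median of 0.37, and less that median the rise in H3 was 0.21 ± 0.06 (0.0138), against 0.55 ± 0.06 in D4 (4.25e-06), whose neighbours stood at −0.05.

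GRHL1 (ENSG00000134317, chromosome 2, 9951693 to 10002277, plus strand), known for its control of desmosomal cadherins, was at 8.79 and 6.5 CPM in the control. It was at 9.74 and 8.29 CPM in D4, 7.5 and 9.1 in G4, 11.3 and 7.79 in G10, with 17.7 and 17.6 in H3. H3 lay above every other library, and D4, G4 and G10 overlapped the control. GRHL1 rose by 1.12 ± 0.17 in H3 (limma adjusted p = 7.2e-05). The values in D4 (0.22, adjusted p = 0.33), G4 (0.11, 0.679) and G10 (0.28, 0.226) did not pass; with neighbours subtracted D4 did (0.44, 0.0449), and without G10 replicate 2 so did G10 (0.52, 0.0425). H3 exceeded the next group, G10, by 0.84 ± 0.17 (0.00117), and no other neighbours in the order differed.

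Per kilobase GRHL3 made up 24.9% ± 1.19 (SD, n = 2) of the summed grainyhead-like level in the control. Its share was 14.7% ± 0.278 in H3, 6.98% ± 0.797 in G4, 3.05% ± 0.245 in D4 and 2.21% ± 0.396 in G10. GRHL2 took 72.3% ± 0.619 in the control and 80.4% to 94.1% in the clones, and GRHL1 2.81% ± 0.573 in the control and 3.03% to 4.85% in the clones. The summed level was 34.2 CPM per kb in the control, 37.4 in D4, 30.1 in G4, 32.5 in G10 and 45.8 in H3. The share of GRHL3 was thus lower and that of GRHL2 higher in every clone. The sum lay between 30.1 and 37.4 in the control, D4, G4 and G10, and was higher in H3. A share of GRHL2 rises when GRHL3 falls even if GRHL2 itself does not change, and in G4 the level of GRHL2 did not pass. These shares are descriptions with no test of their own.

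**Figure D3:**
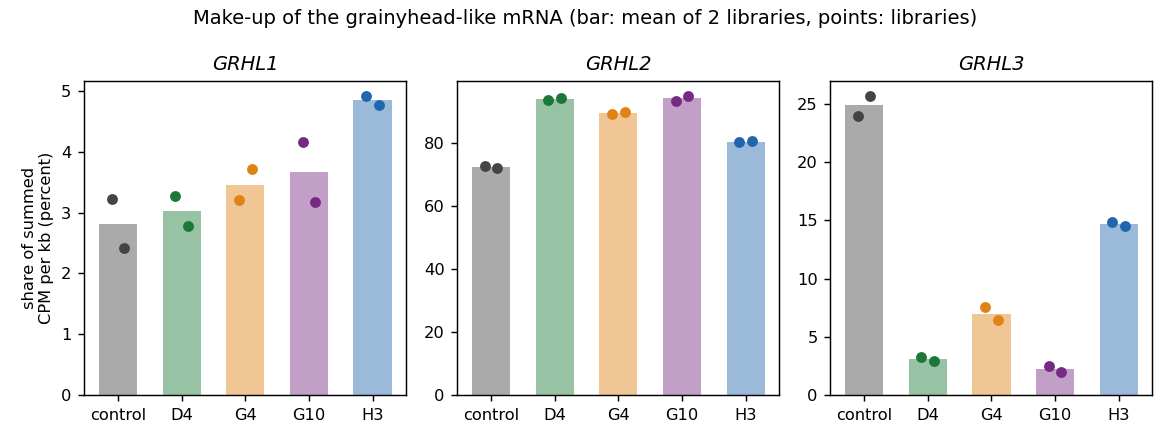
Share of each grainyhead-like gene in the summed CPM per kb of GRHL1, GRHL2 and GRHL3 (vertical axes in percent, each from 0), by group. Bars are means of 2 libraries and points are libraries. GRHL3 falls from 24.9% in the control to 2.21% to 14.7% in the clones, with H3 the highest of the clones.

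ZNF750 and TFAP2A were each called in 1 clone, ZNF750 lower in G10 and TFAP2A lower in D4. In the other clones both stood at 81.4% to 105% of the control mean.

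ZNF750 (ENSG00000141579, chromosome 17, 82829435 to 82840578, minus strand), a zinc-finger factor that acts downstream of p63 and together with KLF4, was at 3.15 and 3.3 CPM in the control. It was at 2.55 and 2.7 CPM in D4, 2.85 and 2.5 in G4, 1.25 and 0.949 in G10, with 3.55 and 2.3 in H3. G10 lay below every other library, D4 and G4 lay slightly below the control and H3 spanned it. ZNF750 fell by 1.01 ± 0.19 in G10 (limma adjusted p = 0.000539), to 34.1% of the control mean. The values in D4 (−0.22, adjusted p = 0.373), G4 (−0.2, 0.466) and H3 (−0.12, 0.62) did not pass. D4 differed from G10 (0.0047), and no other neighbours in the order of levels differed. ZNF750 lies inside TBCD on the opposite strand and shares no exonic base with it; without a stated strand setting, reads from TBCD introns cannot be told apart from its own. TBCD averaged 71.8 CPM.

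TFAP2A (ENSG00000137203, chromosome 6, 10393186 to 10419659, minus strand), an AP-2 factor of keratin gene promoters, was at 16.4 and 20.3 CPM in the control. It was at 12.6 and 13.4 CPM in D4, 15.8 and 15.0 in G4, 17.2 and 21.5 in G10, with 15.0 and 15.1 in H3. D4, G4 and H3 lay below both control libraries and G10 overlapped them. The fall of 0.46 ± 0.13 in D4 passed (limma adjusted p = 0.00878), but not without control replicate 2 (0.129) or without D4 replicate 1 (0.0567). G4 (−0.23, 0.198), H3 (−0.26, 0.107) and G10 (0.07, 0.716) did not pass, though H3 did without control replicate 1 (−0.41, 0.0457), and no neighbours in the order of levels differed. Between the ends of that order, G10 exceeded D4 by 0.53 ± 0.13 (adjusted p = 0.00549). Antisense genes share 11.4% and 5.3% of the exonic bases of TFAP2A, so its reads and theirs cannot be told apart where they overlap. The second AP-2 gene of keratinocytes, TFAP2C, went the other way: it rose from 18.7 ± 0.0721 CPM (SD, n = 2) in the control to 60.9 ± 2.5 in D4, 41.4 ± 2.93 in G10 and 55.7 ± 2.73 in H3, by 1.65, 1.1 and 1.52 on the log2 scale (limma adjusted p = 7.94e-10, 1.21e-07 and 1.77e-09). In G4 it was at 21.9 ± 0.671 CPM (0.21, 0.0875).

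Counted over the 9 factors, 7 were called in D4 (limma adjusted p under 0.05), 1 higher and 6 lower. Of all tested genes 41.2% were called in D4, 17.5% higher and 23.8% lower. In G10 7 factors were called, 1 higher and 6 lower, beside 37% of all genes, 17.8% higher and 19.1% lower. In H3 6 factors were called, 2 higher and 4 lower, beside 46% of all genes, 23.9% higher and 22.1% lower. In G4 3 were called, KLF4, KLF5 and GRHL3, all lower, beside 27.3% of all genes, 16.4% lower. For the mean of the 4 clones 8 of 9 were called, 2 higher (GRHL1 and GRHL2) and 6 lower, beside 40.2% of all genes, 18.2% higher and 22% lower. The median log2 fold change of the 9 was −0.54 for that mean, against −0.02 over all tested genes. These 5 comparisons share the 2 control libraries, so their counts are not independent of each other. The 9 were chosen with earlier results of these data known, so counts beside all genes describe them and do not test the set.

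The calls for the mean of the 4 clones depend on which error is used. GRHL3 had −2.01 ± 0.11 (adjusted p = 1.71e-09), SOX2 −1.69 ± 0.14 (2.29e-07), KLF4 −1.09 ± 0.13 (5.98e-06), KLF5 −0.74 ± 0.05 (3.62e-08) and TP63 −0.54 ± 0.06 (2.06e-06). GRHL1 had 0.43 ± 0.14 (0.0193) and GRHL2 0.38 ± 0.05 (2.41e-05), while ZNF750 was near the threshold with −0.39 ± 0.15 (0.0466) and TFAP2A did not pass with −0.22 ± 0.1 (0.0946). These errors are the spread between the 2 libraries of a group. When limma took the clone as its unit, 0 of the 9 factors and 0 of all genes passed. An unadjusted p under 0.05 was reached by 2 factors in the fit to group means and by 5 in the fit that held each clone as a random effect. The GRHL1 call for the mean was lost without clone H3 (0.2, adjusted p = 0.328) and without control replicate 2 (0.24, 0.332), and that of ZNF750 without clone G10 (−0.18, 0.353). The TP63 value was −0.31 without clone G10 (0.000313) and −0.22 with neighbours subtracted (0.00199). The TFAP2A value passed without clone G10 (−0.32, 0.0145) and without G10 replicate 2 (−0.26, 0.039).

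**Figure D4:**
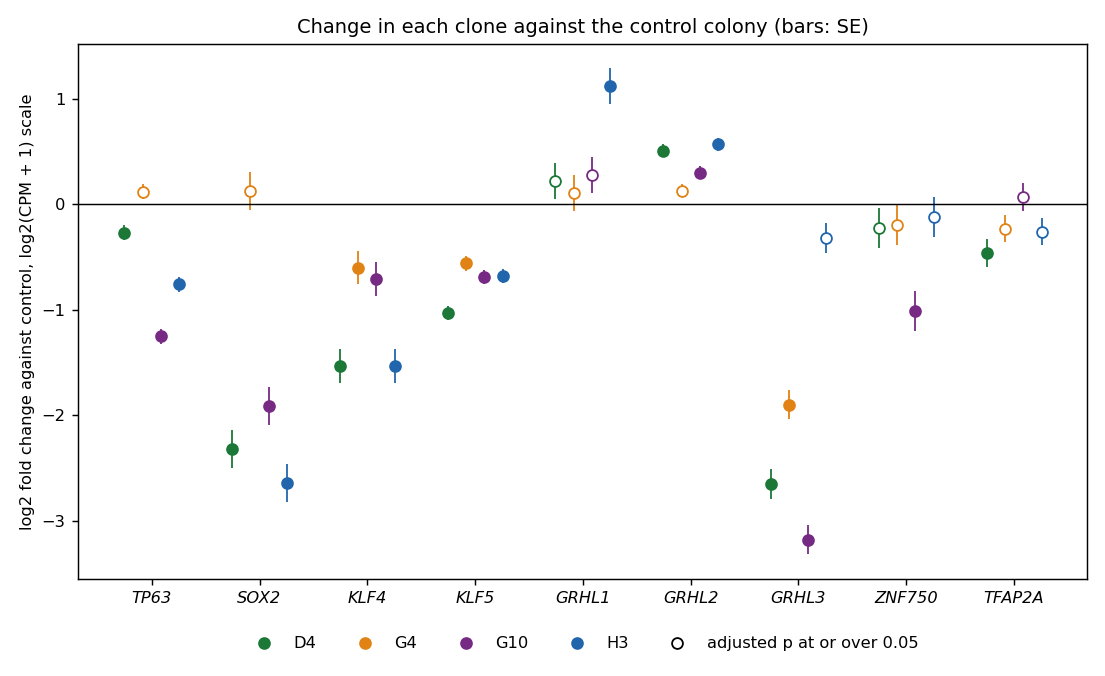
Log2 fold change of each factor against the control colony on the log2(CPM + 1) scale (vertical axis), by gene (horizontal axis) and clone (colour). Bars are standard errors of the limma fit, and open points have an adjusted p at or over 0.05. KLF4 and KLF5 are the genes with 4 filled points below 0, and GRHL3 in H3 is an open point at −0.32.

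The 4 clones differed from each other for all 9 factors (limma F test), TFAP2A not without G10 replicate 2, as they did for 67.3% of all tested genes. G4 stood apart from the mean of the other 3 clones for 6 of the 9, 4 higher and 2 lower, beside 42.8% of all genes, 19.1% higher and 23.7% lower. TP63 (0.88 ± 0.06, adjusted p = 8.38e-09), SOX2 (2.42 ± 0.15, 2.98e-09), KLF4 (0.65 ± 0.13, 0.000783) and KLF5 (0.24 ± 0.06, 0.00221) were higher in G4. GRHL1 (−0.43 ± 0.14, 0.0223) and GRHL2 (−0.34 ± 0.05, 7.83e-05) were lower there, GRHL1 not without G4 replicate 1. GRHL3 (0.15, 0.312), ZNF750 (0.25, 0.208) and TFAP2A (−0.01, 0.935) did not pass. The mRNA of INPPL1 itself was lowest in G10 and next lowest in G4. How that level relates to SHIP2 protein or to the level of the factors was not tested.

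Genes known to be controlled by the factors were read from lists, each described by its counts beside all tested genes. The lists too were chosen with earlier results of these data known, so these counts do not test a list. Of 29 tested targets and partners of TP63 in the basal layer, 17 were lower and 3 higher for the mean of the 4 clones, beside 22% and 18.2% of all tested genes, with a median log2 fold change of −0.4 against −0.02 over all genes. The hemidesmosome collagen COL17A1 was at 290 ± 8.53 CPM (SD, n = 2) in the control, 27.7 ± 0.984 in D4, 36.1 ± 0.317 in G10 and 32 ± 2.72 in H3, but at 279 ± 3.65 in G4, where it did not pass (−0.06, limma adjusted p = 0.636). The desmosomal cadherin DSG3 fell in all 4 clones, from 47 ± 1.7 CPM to 6.42 ± 0.6 in D4, 27.9 ± 0.0714 in G4, 8.57 ± 0.883 in G10 and 5.5 ± 0.212 in H3. The laminin-332 chain genes LAMB3 and LAMA3 also fell in all 4, with log2 fold changes of −1.25 to −2.19 and −0.38 to −2.18. Against the control, 12 of the 29 were lower in G4 and 4 higher, beside 16.4% and 10.9% of all genes (median −0.21, against −0.04). In D4 14 were lower and 7 higher, beside 23.8% and 17.5% (median −0.25, against −0.06). In G10 21 were lower and 2 higher, beside 19.1% and 17.8% (median −0.63, against 0). In H3 19 were lower and 3 higher, beside 22.1% and 23.9% (median −0.7, against 0.01). Relative to the mean of the other 3 clones, 17 of the 29 were higher in G4 and 5 lower, beside 19.1% and 23.7% of all genes, with a median of 0.47 against −0.03. The basal keratin KRT5 differed in direction between the clones, with log2 fold changes of 1.98 in D4 (5.61e-09), −0.91 in G4 (7.95e-05), −0.46 in G10 (0.00933) and 0.44 in H3 (0.00936).

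Among genes of the differentiated layers that KLF4 and ZNF750 are known to induce, only 17 of 38 listed genes passed the filter. For the mean of the clones 5 were lower, 2 higher and 10 not called, beside 22% lower and 18.2% higher of all genes, with a median of −0.18 against −0.02. LY6D, a membrane protein of squamous cells, fell from 38 ± 3.95 CPM (SD, n = 2) in the control to 0.575 ± 0.106 in D4, 11.9 ± 0.53 in G4, 0.549 ± 0.282 in G10 and 0.974 ± 0.177 in H3. The plakin PPL fell in all 4 clones (−0.36 to −0.8). The mucosal keratin KRT13 fell in D4 (−0.65), G4 (−0.99) and G10 (−3.0), and stood at 0.19 in H3 (adjusted p = 0.178). KRT80, a keratin that is not restricted to stratified epithelium, rose in all 4, by 2.18 in D4, 0.21 in G4, 1.7 in G10 and 1.1 in H3. The keratin gene KRT4, also called higher for the mean, rose in D4 (1.25), G10 (1.06) and H3 (2.47). In G4 it stood at −0.08 (adjusted p = 0.784). Of the 17, 5 were lower and 4 higher in D4, beside 23.8% and 17.5% of all genes. In G4 6 were lower and 1 higher, beside 16.4% and 10.9%. In G10 8 were lower and 3 higher, beside 19.1% and 17.8%. In H3 7 were lower and 5 higher, beside 22.1% and 23.9%.

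Of 25 tested junction and epithelial genes known as grainyhead-like targets, 7 were higher, 7 lower and 11 not called for the mean of the clones, beside 18.2% higher and 22% lower of all genes, with a median of 0 against −0.02. In H3 12 were higher and 4 lower, beside 23.9% and 22.1% of all genes (median 0.3, against 0.01). In D4 9 were higher and 7 lower, beside 17.5% and 23.8% (median 0.02, against −0.06). In G10 4 were higher and 8 lower, beside 17.8% and 19.1% (median 0.02, against 0), and in G4 2 were higher and 6 lower, beside 10.9% and 16.4% (median −0.1, against −0.04). The serine protease gene PRSS8 fell in G10 (−2.02, limma adjusted p = 6.22e-08), H3 (−1.71, 2.37e-07) and D4 (−0.47, 0.0213). The basement-membrane anchor gene LAD1 fell in D4 (−0.77), G10 (−0.52) and H3 (−0.69), and was −0.06 in G4 (0.531). The transglutaminase gene TGM5 rose by 3.59 in D4 and 2.49 in H3, from 0.475 ± 0.106 CPM (SD, n = 2) to 16.8 ± 0.279 and 7.32 ± 1.38. PRRG4 rose by 0.53 to 0.86 in D4, G10 and H3.

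**Figure D5:**
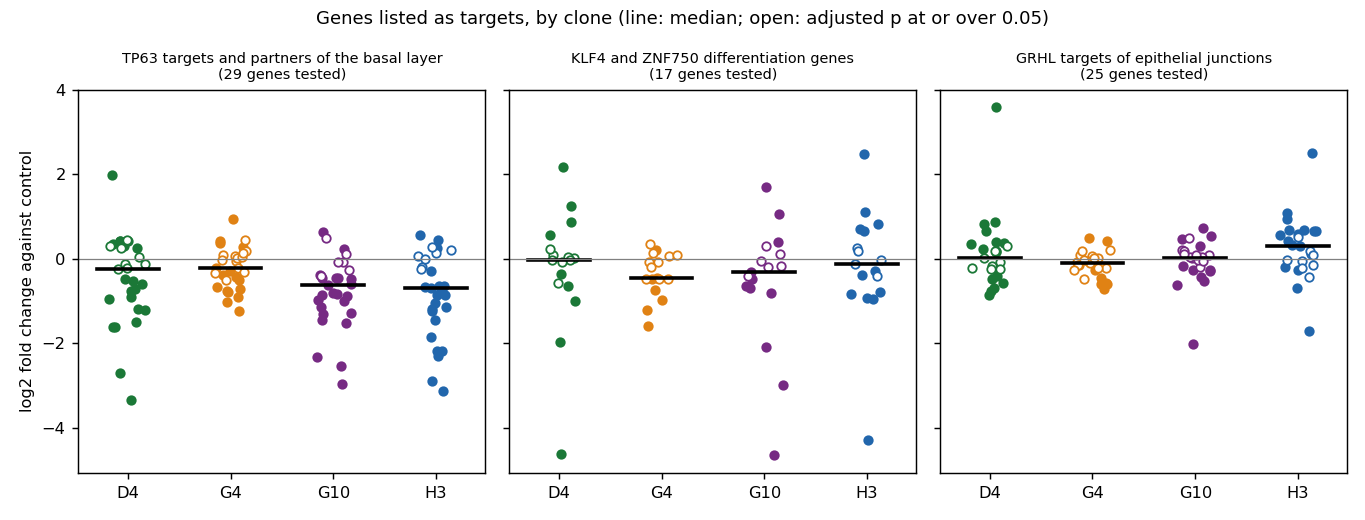
Log2 fold change against control (vertical axis) of tested genes listed as targets of TP63 (29 genes), KLF4 and ZNF750 (17) and the grainyhead-like factors (25), by clone. Each point is a gene, lines are medians and open points have an adjusted p at or over 0.05. The TP63 list has its lowest medians in G10 (−0.63) and H3 (−0.7), and the grainyhead-like list its highest in H3 (0.3).

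Other transcription factors of squamous cells and keratinocytes were lower in 14, higher in 8 and not called in 9 of 31 cases for the mean of the clones, beside 22% lower and 18.2% higher of all genes (median −0.18, against −0.02). HES2, a Hairy-related repressor, fell in all 4 clones (−0.78 to −2.04 on the log2 scale), and so did OVOL1, a repressor that accompanies differentiation (−1.0 to −1.63). OVOL1 went from 92.2 ± 0.559 CPM (SD, n = 2) in the control to 29.2 ± 0.607 in D4, 44.3 ± 1.94 in G4, 30.5 ± 1.1 in G10 and 45.7 ± 3.04 in H3. CEBPA, a bZIP factor of differentiation, fell in D4 (−1.35), G10 (−1.1) and G4 (−0.64) and stood at −0.14 in H3 (adjusted p = 0.428). Of 21 tested paralogs of the 9 factors 6 were lower and 4 higher, beside the same shares, with a median of −0.03 against −0.02. KLF13 went from 62.9 ± 1.77 CPM in the control to 0.525 ± 0.177 in D4, 1.35 ± 0.778 in G10 and 7.52 ± 0.177 in H3, and was at 52.4 ± 1.7 in G4, where it did not pass (−0.26, 0.317). SOX21 fell in D4 (−0.92) and G10 (−0.82), and SOX4 rose in D4 (0.86), G4 (0.36) and G10 (0.51).

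The genes whose levels ran most like each factor were named as a description, by Pearson's r of log2(CPM + 1) over the 10 libraries among at least 12756 genes whose mean reached 5 CPM. The libraries fall into 5 groups, so these values mostly reflect 5 group means. TP63 ran closest with RNF19B (0.980), UGDH (0.977) and RAB7A (0.976), and SOX2 with TMEM41A (0.991), PSMD2 (0.989) and IL1A (0.987). RAB7A, TMEM41A and PSMD2 lie on chromosome 3. So do AC134772.1, TMA7 and SH3BP5-AS1, named next for GRHL2 and GRHL1, which themselves lie on chromosomes 8 and 2. GRHL2 and GRHL1 were higher in H3, where TP63 and SOX2 were lower, so these chromosome 3 genes do not share a direction. KLF4 ran closest with RHOD (0.977) and KLF5 with GLG1 (0.984). GRHL3 ran closest with SV2A (0.974), the tight-junction gene OCLN (0.971) and ID2 (0.970), and GRHL2 with AC134772.1 (0.995), TMA7 (0.987) and LAMA1 (0.984). For GRHL1, ZNF750 and TFAP2A the first genes were SH3BP5-AS1 (0.967), TRIM16L (0.965) and NANS (0.968).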

How the data were processed

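RNA sequencing of 10 libraries from KYSE-410 cells was analysed. The deposited values were CPM, 1 column per library, per the file headers; 0 value columns were left unused. The submitters' processing notes list STAR 2.5.3a, HTSeq and the hg38 genome; the annotation release and strand setting are not given in the sources used here. Of 58302 genes 58039 matched GENCODE 29 by Ensembl ID, which gave positions and exon lengths.

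From these values limma 3.58.1 (R 4.3.3, trend and robust moderation) was fitted to log2(CPM + 1) of the 17664 genes that reached 1 CPM in 2 or more libraries. Each group had 1 coefficient, which left 5 residual degrees of freedom, and p-values were adjusted by Benjamini-Hochberg over all genes at 0.05. Clones were compared with the control, with each other and as a mean. The CPM did not hold whole reads, so no count test was run. Reads were estimated by undoing a common scaling, with 99.79% to 99.9% of values matched exactly, for depths and for limma-voom.

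The factors and lists were chosen with earlier results of these data known. Named genes were the 9 factors, INPPL1, the 3 genes most like each factor and up to 4 genes a list. Those of a list had the largest change for the mean of the clones, passed and had a mean of at least 5 CPM. KRT5 and KRT4 were chosen after their values were seen, and KRT4 was below that mean. Simulated data with known changes were used to test the fit. Other tools were pandas 2.3.3 and numpy 2.4.6 for tables (Python 3.11.15) and matplotlib 3.10.9 for figures. Alternatives are given below.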

Additional observations from a re-analysis of the deposited data

Results flagged for a closer look

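The change against control differed among the 4 clones for all 9 factors by limma's F test over the clones (adjusted over 17664 genes), which 67.3% of all tested genes also passed. The adjusted p was 7.45e-10 for GRHL3, 1.6e-09 for TP63 and 1.36e-08 for SOX2, the factors with the widest range over the clones. It was 6.2e-05 for GRHL2, 6.83e-05 for KLF4, 0.00011 for KLF5 and 0.000343 for GRHL1. It was 0.00176 for ZNF750, where G10 lay below the other clones, and 0.0133 for TFAP2A, where D4 was lowest and G10 highest. For TFAP2A the test did not pass without G10 replicate 2.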

How the results depend on the processing

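Of 809 recomputed values for the 9 factors, 751 kept their direction and their side of the threshold, 39 lost a call, 10 gained one and 9 changed sign. For the mean of the 4 clones the count of called factors was 8 and fell to 0 with limma on group means and to 0 with the clone as a random block (correlation within a clone 0.778). Leaving out 1 library gave 6 to 8 factors for that mean, 6 to 7 for D4, 2 to 3 for G4, 7 to 8 for G10 and 6 to 7 for H3. Leaving out 1 library gave 8 to 9 factors for the difference among clones and 5 to 6 for G4 against the others. With neighbouring genes subtracted, the sign turned for TP63 in D4 (0.11), GRHL1 in G4 (−0.09), GRHL2 in G4 (−0.03) and ZNF750 in H3 (0.3). Without 1 library it turned for GRHL1 in G4 (−0.08 without control replicate 2, −0.01 without G4 replicate 2, range −0.08 to 0.31), ZNF750 in H3 (0.11 without H3 replicate 2, range −0.36 to 0.11) and TFAP2A in G10 (−0.08 without control replicate 1 or G10 replicate 2, range −0.08 to 0.22). Of these 9 values only that of TP63 had been called. The mean call of ZNF750 was lost under most settings. The cause of these changes was not tested. With the replicate number as a block the counts were 8, 7, 3, 7 and 6 for the mean, D4, G4, G10 and H3; deviations of same-numbered libraries correlated at 0.213 to 0.414 in the 6 pairs among control, D4, G4 and G10 and at −0.237 to −0.083 in the 4 pairs with H3. The labels give no source for these numbers, so no block was kept. Size factors moved the median of all genes from −0.023 to 0. With a mean of at least 5 CPM, SOX2 and ZNF750 were not in the fit. Depth limits SOX2, at 4 to 20 estimated reads a library in D4, G10 and H3.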
